A study of Homo sapiens with 4 samples.

Results

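Death receptors and the proteins that carry their signal were examined in Panc1 cells, an established human pancreatic cancer cell line, on Affymetrix expression arrays. The members were chosen by name, as every probe set annotated to 1 of 10 listed genes and to no other gene. They are the ligand TNFSF10, the receptors FAS, TNFRSF10A, TNFRSF10B, TNFRSF10D and TNFRSF1A, the adaptor FADD, the kinase RIPK1 and the caspases CASP8 and CASP10. Of the 19775 genes on the array that a probe set names alone, 9 were listed genes, and they had 26 of the 41091 such probe sets. No probe set in the annotation used here names RIPK1, which was therefore not analysed here. The 4 conditions, with 1 array each, were romidepsin plus tamoxifen (the combination), romidepsin alone, tamoxifen alone, and no treatment. Treatment lasted 24 hours, at doses that the labels do not state. Romidepsin inhibits histone deacetylases, the enzymes that strip acetyl groups from histones, and tamoxifen binds the estrogen receptor and modulates it. All samples come from the same cell line and medium. With 1 array per condition there is no test and no SD, and every fold describes these arrays only. In RNA from a whole culture, a lower level in all cells and loss of the RNA from some cells cannot be told apart.

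Death receptors belong to the tumour necrosis factor receptor superfamily and carry a death domain inside the cell. FAS binds Fas ligand, TNFRSF10A (DR4) and TNFRSF10B (DR5) bind TRAIL, the product of TNFSF10, and TNFRSF1A binds tumour necrosis factor. TNFRSF10D (DcR2) also binds TRAIL, but its death domain is truncated, so it is known as a decoy. FAS and the TRAIL receptors recruit FADD, which binds the initiator caspases 8 and 10 and lets them activate each other. CFLAR (c-FLIP) competes with caspase 8 in this complex. TNFRSF1A first signals through TRADD and RIPK1 to NF-kappaB, and can turn to FADD and caspase 8 later. In many cells the active caspase 8 also cleaves BID, which links the receptors to the mitochondria.

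The sequence just before the start site is shown for TNFRSF1A, FADD and CASP8, whose signals fell at least 2-fold in the combination. It is also shown for FAS, which did not reach that fold, but not for TNFRSF10A, which fell too. Each run is the 250 bases before an annotated RefSeq start, 5′ to 3′ on the gene's strand, in build GRCh38.p14. Of several starts listed for FAS and for CASP8, the first in the table was taken. Capitals mark GGGCGG (GC box), TGANTCA (AP-1 motif), CCAAT and TATAAA, searched on both strands, with no overlap between them in these windows.
TNFRSF1A, chr12:6342077-6342326, minus strand: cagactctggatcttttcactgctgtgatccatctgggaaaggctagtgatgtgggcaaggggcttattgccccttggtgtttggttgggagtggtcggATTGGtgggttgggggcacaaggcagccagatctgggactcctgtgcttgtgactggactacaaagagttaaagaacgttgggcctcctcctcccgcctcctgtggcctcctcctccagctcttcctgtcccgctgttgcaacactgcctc
FADD, chr11:70203046-70203295, plus strand: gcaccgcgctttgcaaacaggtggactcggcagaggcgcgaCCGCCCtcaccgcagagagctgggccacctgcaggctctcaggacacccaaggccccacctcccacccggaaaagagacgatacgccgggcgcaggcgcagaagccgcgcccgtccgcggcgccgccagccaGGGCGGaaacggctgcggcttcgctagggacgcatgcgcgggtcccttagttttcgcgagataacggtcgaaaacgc
CASP8, chr2:201233213-201233462, plus strand: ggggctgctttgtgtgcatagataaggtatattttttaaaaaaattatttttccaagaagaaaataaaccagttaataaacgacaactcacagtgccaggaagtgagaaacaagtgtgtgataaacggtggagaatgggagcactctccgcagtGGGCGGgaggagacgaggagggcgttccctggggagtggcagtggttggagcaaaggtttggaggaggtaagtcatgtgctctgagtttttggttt
FAS, chr10:88990548-88990797, plus strand: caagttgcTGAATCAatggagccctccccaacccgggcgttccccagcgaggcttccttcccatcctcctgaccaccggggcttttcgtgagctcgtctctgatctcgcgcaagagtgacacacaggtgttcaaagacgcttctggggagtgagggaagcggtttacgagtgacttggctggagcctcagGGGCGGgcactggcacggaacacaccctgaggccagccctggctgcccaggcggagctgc
The TNFRSF1A window holds 1 CCAAT, on the opposite strand, and no GC box. The FADD window holds 2 GC boxes, the CASP8 window 1, and the FAS window 1 with 1 AP-1 motif. For CASP8 and FAS the motifs depend on the start taken. CASP8 start 2 holds 0 GC boxes, 2 CCAAT and 1 TATAAA, and start 3 holds 0 GC boxes and 1 AP-1 motif. FAS start 2 holds 2 GC boxes and start 3 holds 1, with no AP-1 motif in either. Of 35116 windows of the same length, 42.6% hold a GC box, 32% CCAAT, 10.7% TATAAA and 6.57% the AP-1 motif. A match here is a match of letters and shows no binding.

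Signals are MAS5 intensities on a linear scale. Signals below 66.4, the median over the non-control probe sets of all arrays, have no order and were set to that floor before folds were taken. A gene is represented by its brightest probe set, counts as measured where at least 1 of the 2 arrays compared lay above the floor, and is said to rise or fall where it differed at least 2-fold. Of the 26 probe sets, 13 lay above the floor on all 4 arrays, 4 on some and 9 on none. The probe sets that met the floor cover 8 genes, and 7 of these genes lay above it on all 4 arrays. Across all genes with 2 probe sets above the floor, the log2 folds of both differed by a median of 0.22 to 0.30 in the 5 comparisons, with a 95th percentile of 0.88 to 1.22, which is about the size of a 2-fold difference. Probe sets of a gene can read different transcripts. The 3′ to 5′ signal ratio of actin, which rises as RNA degrades, was 1.73 on the combination array, 1.18 with romidepsin, 1.39 with tamoxifen and 1.21 in untreated cells. The same ratio of GAPDH was 1.07, 1.03, 1.04 and 1.07 on these arrays. The part of RNA quality in the results was not tested. Of 7 markers fixed for these cells, 5 lay above the floor on all arrays, among them KRT8, KRT18 and VIM, while the ductal keratin KRT19 was at most 11.4 on any array. Another of the 7, EPCAM, was at 475 in the combination, 395 with romidepsin, 71.9 with tamoxifen and 64.3, below the floor, in untreated cells. Of 15 markers of other cell types with a probe set 10 lay below the floor on all arrays. Of the fibroblast markers, COL1A1 was at 6365 to 9773 and DCN at 67.1 to 91.6, while COL1A2 and LUM were at most 50.4 and 26.9. Of the endothelial markers, PECAM1 was at 110 to 136 and VWF at most 98.3, while CDH5 was at most 39.7. The acinar marker CELA3A was at most 132, and CPA1 at most 12.5.

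**Figure D1:**
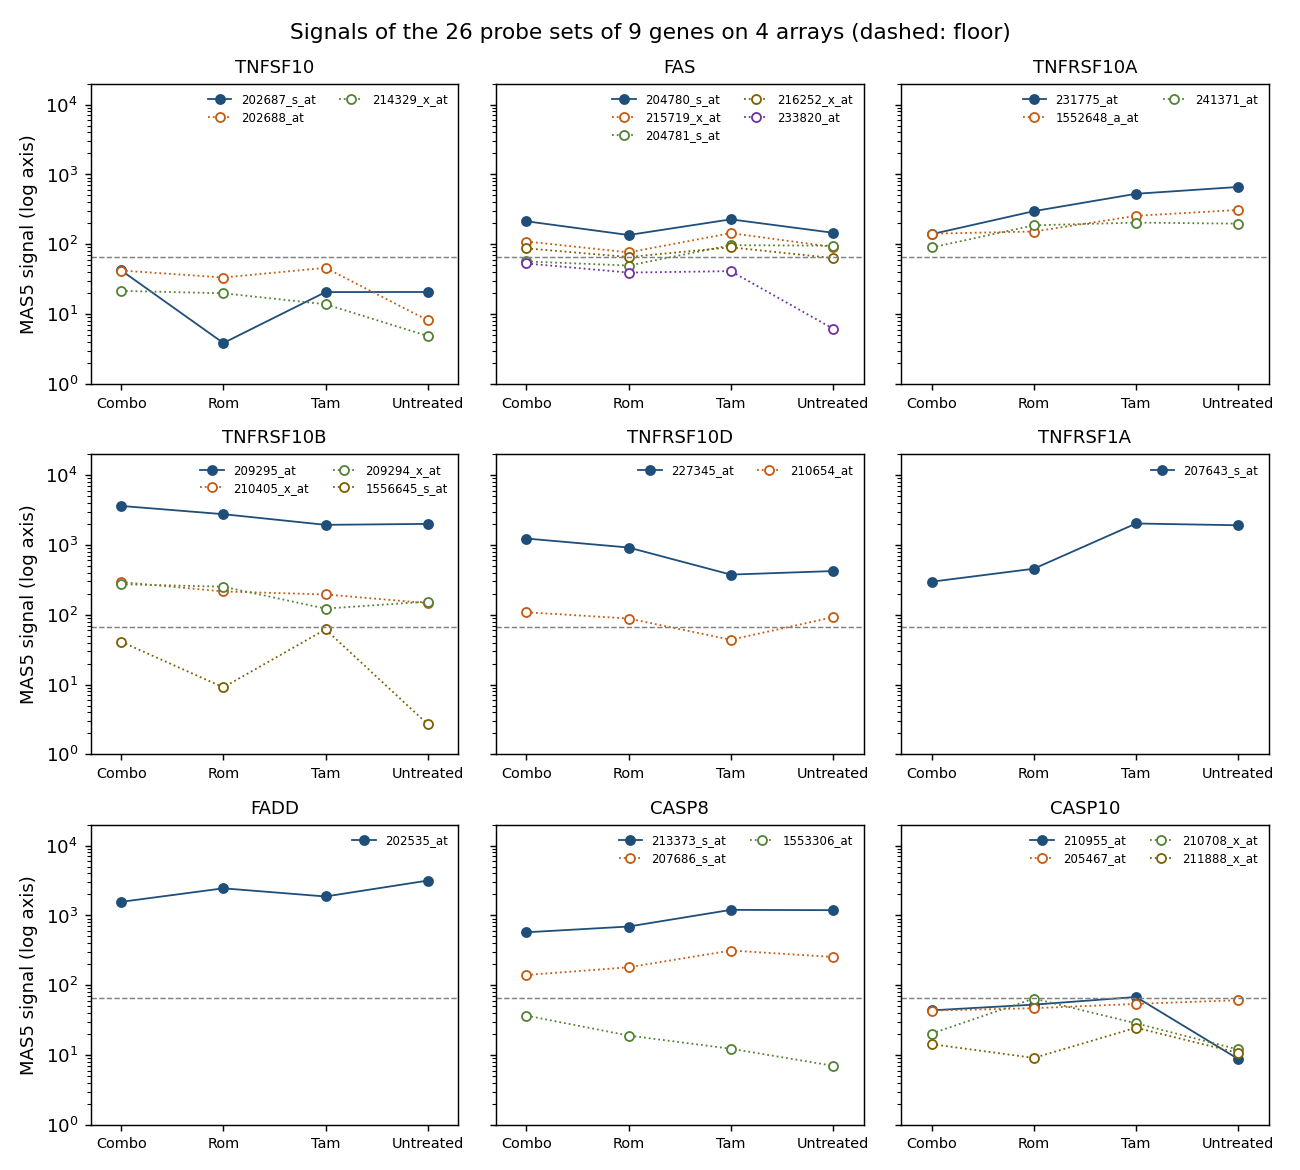
MAS5 signals (log axis) of all 26 probe sets of the 9 genes on the combination (Combo), romidepsin (Rom), tamoxifen (Tam) and untreated arrays, 1 array each. Filled points joined by solid lines are the probe set with the highest mean after the floor, open points the others, and the dashed line is the floor of 66.4, under which every TNFSF10 point lies.

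Among the members, by their brightest probe sets, TNFRSF1A and TNFRSF10A fell and the decoy TNFRSF10D rose, in romidepsin and combination cells alike. FADD and CASP8 fell in the combination, just past 2-fold. With the combination, 4 of 7 measured members fell and 1 rose against untreated cells, while 14.3% of 13867 measured genes fell and 20.0% rose. With romidepsin alone, 2 of 7 fell and 1 rose, where 9.26% of all measured genes fell and 14.5% rose. With tamoxifen alone, 0 of 8 rose or fell, where 1.08% of all measured genes fell and 3.71% rose. The median log2 fold of the measured members was -1.01 in the combination, -0.37 with romidepsin and -0.02 with tamoxifen, against 0.10, 0.06 and 0.01 over all measured genes. Other scalings moved the median of all genes by -0.27 to 0.25 in the combination over untreated cells.

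The ligand TNFSF10 was not measurable. Its 3 probe sets read 42.2, 42.1 and 21.5 in the combination, 3.85, 33.4 and 19.8 with romidepsin, 20.6, 46.0 and 13.8 with tamoxifen, and 20.7, 8.15 and 4.85 in untreated cells. All 12 signals lie under the floor, and the probe sets do not share an order of arrays, so no fold is given.

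TNFRSF1A, the main receptor for tumour necrosis factor, had the largest range of the members. Its signal was 297 in the combination, 457 with romidepsin, 2030 with tamoxifen and 1914 in untreated cells. The romidepsin-treated arrays were both low and the other arrays both high. The gene fell 6.43-fold in the combination and 4.19-fold with romidepsin (log2 folds -2.69 and -2.07), and was 1.06-fold higher with tamoxifen. Only 1.12% of measured genes had a lower log2 fold in the combination and 1.24% with romidepsin. Between the combination and romidepsin alone the difference was 1.53-fold, the combination being lower. TNFRSF1A is read by a single probe set, of the kind (_s_at) that can match several transcripts, so no other probe set of the gene bears on these values.

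TNFRSF10A, a TRAIL receptor with a complete death domain, fell too. Its brightest probe set, 231775_at, read 139 in the combination, 298 with romidepsin, 529 with tamoxifen and 662 in untreated cells. The probe set 1552648_a_at read 142, 152, 255 and 310 on the same arrays, and 241371_at read 89.9, 187, 204 and 197. All 3 were lowest in the combination, at 4.75-fold, 2.19-fold and 2.19-fold below untreated cells. With romidepsin alone the first was 2.22-fold and the second 2.04-fold lower, while 241371_at was 1.06-fold lower. With tamoxifen alone the largest difference from untreated cells was that of 231775_at, 1.25-fold lower. TNFRSF10A was the 1 member that fell in the combination over romidepsin, where 2.28% of 13788 measured genes fell and 4.15% rose: 231775_at was 2.14-fold and 241371_at 2.08-fold lower, but 1552648_a_at only 1.07-fold. That call ended when arrays were scaled to the spike-in controls (log2 fold -0.79, against -1.10 as deposited). With the floor at the 75th percentile, above the signals of the combination and romidepsin arrays, the calls of TNFRSF10A ended in every comparison, with log2 folds of -0.70 in the combination and -0.70 with romidepsin over untreated cells and -0.37 in the combination over tamoxifen.

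TNFRSF10B, the other TRAIL receptor with a death domain, was higher in the combination but did not reach 2-fold on its brightest probe set. That probe set, 209295_at, read 3621 in the combination, 2759 with romidepsin, 1941 with tamoxifen and 2003 in untreated cells. The combination was thus 1.81-fold and romidepsin 1.38-fold higher than untreated cells. The probe set 210405_x_at read 294, 216, 195 and 147 on the same arrays, and 209294_x_at read 274, 252, 122 and 154. All 3 were highest in the combination and second highest with romidepsin. Their log2 folds in the combination over untreated cells were 0.85, 1.0 and 0.83, and the first reached 1.14, past 2-fold, when arrays were scaled to the spike-in controls. The remaining probe set, 1556645_s_at, lay below the floor on every array.

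TNFRSF10D, the decoy receptor, rose where TNFRSF10A fell. Its brightest probe set, 227345_at, read 1236 in the combination, 919 with romidepsin, 376 with tamoxifen and 423 in untreated cells. Both romidepsin-treated arrays were above both others. The gene rose 2.92-fold in the combination and 2.17-fold with romidepsin, and 10.6% of measured genes had a higher fold in the combination. The second probe set, 210654_at, did not follow: it read 109, 88.3, 43.8 and 92.2 on the same arrays, so that the combination was 1.18-fold higher and romidepsin 1.04-fold lower than untreated cells. Its signals are near the floor. With arrays centred on their medians the log2 fold of 227345_at with romidepsin was 0.93, under 2-fold. With the median over both probe sets the log2 folds were 0.89 in the combination and 0.53 with romidepsin, and both calls ended. In the gene table, TNFRSF10B, TNFRSF10C, TNFRSF10D and TNFRSF10A are neighbouring protein-coding genes in that order on chromosome 8.

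FAS had a smaller range than the TRAIL receptors and was higher on the arrays with tamoxifen. Its brightest probe set, 204780_s_at, read 213 in the combination, 136 with romidepsin, 227 with tamoxifen and 146 in untreated cells. The tamoxifen-treated arrays were both above the others. The folds over untreated cells were 1.46-fold higher in the combination, 1.08-fold lower with romidepsin and 1.56-fold higher with tamoxifen. The probe set 215719_x_at kept that order of groups, with 109, 76.5, 144 and 91.5, and 216252_x_at, close to the floor, read 87.3, 65.7, 90.5 and 63.4. The probe set 204781_s_at did not: it read 56.7, 49.5, 97.1 and 95.2, with the romidepsin-treated arrays under the floor. The fifth, 233820_at, was below the floor throughout.

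FADD, the adaptor that joins FAS and the TRAIL receptors to the caspases, is read by 1 probe set. It gave 1566 in the combination, 2447 with romidepsin, 1870 with tamoxifen and 3159 in untreated cells. All treated arrays were below the untreated one. The fall in the combination was 2.02-fold, while romidepsin was 1.29-fold and tamoxifen 1.69-fold lower than untreated cells. The call in the combination ended after quantile normalization, after scaling to the spike-in controls and with an offset in place of a floor (log2 fold -0.998): the log2 fold was -1.01 as deposited and between -1.31 and -0.72 under the 3 other scalings, negative in each. With tamoxifen, 3.98% of measured genes had a lower fold than FADD.

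CASP8, the initiator caspase of the receptor complex, was lower on both arrays with romidepsin. Its brightest probe set, 213373_s_at, read 574 in the combination, 694 with romidepsin, 1202 with tamoxifen and 1191 in untreated cells. The probe set 207686_s_at read 140, 181, 314 and 254, again lowest in the combination and next lowest with romidepsin. CASP8 fell 2.07-fold in the combination and was 1.72-fold lower with romidepsin, and the second probe set was 1.81-fold and 1.41-fold lower. The log2 fold in the combination was -1.05, and -0.76 when arrays were scaled to the spike-in controls and -0.96 with the median over probe sets, both under 2-fold. The third probe set lay below the floor on every array.

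CASP10, the relative of CASP8, was at or under the floor. Of its 4 probe sets only 210955_at passed it, on the tamoxifen array alone, with 67.9, against 43.7 in the combination, 52.7 with romidepsin and 8.78 in untreated cells. The other 3 probe sets lay between 9.10 and 64.6. The gene table lists CFLAR, CASP10 and CASP8 as neighbouring protein-coding genes on chromosome 2.

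**Figure D2:**
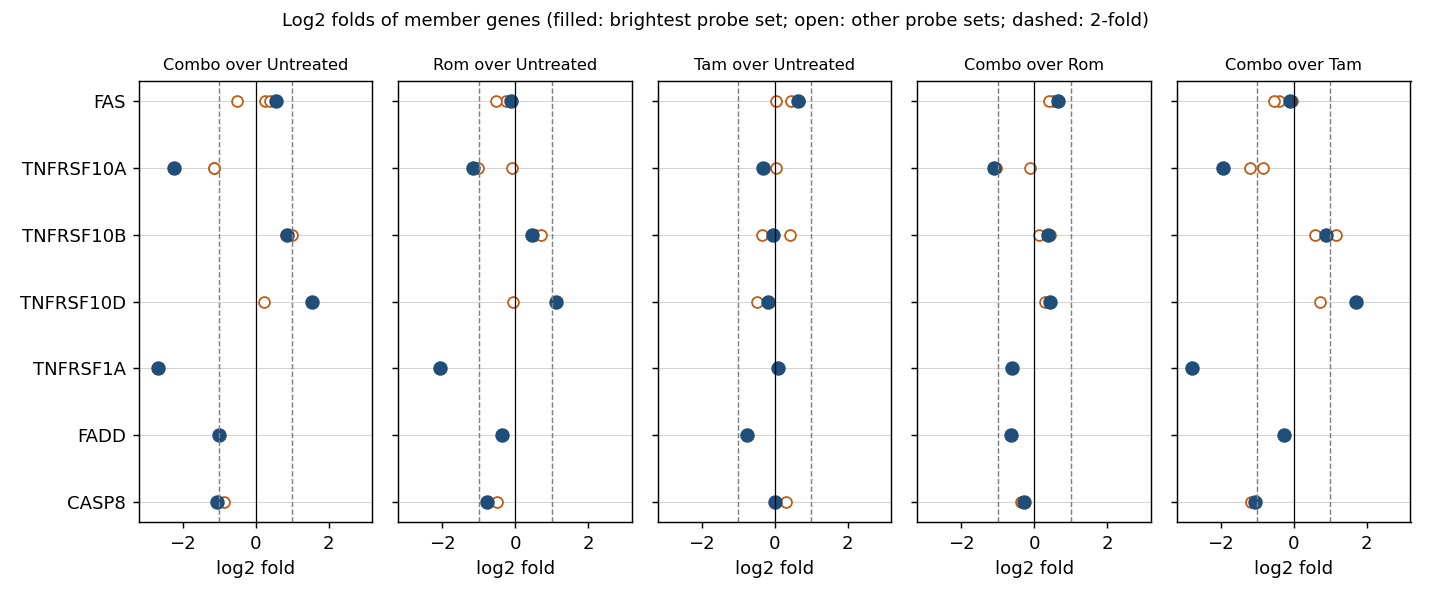
Log2 folds of 7 member genes in 5 comparisons, with the brightest probe set filled, other measured probe sets open and 2-fold dashed; TNFSF10 and CASP10, at or under the floor, are left out. The filled points of TNFRSF1A and TNFRSF10A lie left of the 2-fold line and that of TNFRSF10D right of it wherever a romidepsin-treated array is set against one without romidepsin.

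The design gives each drug's effect in 2 pairs of arrays that share no array, once without and once with the other drug. For romidepsin these are romidepsin over untreated cells and the combination over tamoxifen. By their brightest probe sets, all 7 members measured both times kept their direction, as did 84.5% of 13141 genes. The log2 folds without and with tamoxifen were -2.07 and -2.77 for TNFRSF1A, -1.15 and -1.92 for TNFRSF10A, and 1.12 and 1.72 for TNFRSF10D. They were -0.78 and -1.07 for CASP8, 0.46 and 0.90 for TNFRSF10B, -0.37 and -0.26 for FADD, and -0.11 and -0.09 for FAS. Thus 2 of 7 members fell and 1 rose at least 2-fold both times, where 7.69% of all these genes fell and 11.6% rose both times. The other probe sets of TNFRSF10A and TNFRSF10D did not pass 2-fold both times. For TNFRSF10A, 1552648_a_at had -1.03 and -0.85, and 241371_at had -0.08 and -1.18. For TNFRSF10D, 210654_at had -0.06 and, with the tamoxifen array under the floor, 0.71. In the combination over tamoxifen itself, 3 of 8 measured members fell (TNFRSF1A, TNFRSF10A and CASP8) and 1 rose, with 11.8% and 15.0% of all measured genes. The folds were 6.82-fold for TNFRSF1A, 3.79-fold for TNFRSF10A, 2.09-fold for CASP8 and 3.29-fold for TNFRSF10D.

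For tamoxifen the pairs are tamoxifen over untreated cells and the combination over romidepsin. By their brightest probe sets, 3 of 7 members kept their direction, as did 73.2% of 12324 genes. FAS and FADD had the closest values in both. The log2 folds without and with romidepsin were 0.64 and 0.65 for FAS and -0.76 and -0.64 for FADD. As deposited and by the brightest probe set, FAS was thus at least 1.5-fold higher both times, as were 7.53% of 12324 genes. FADD was at least 1.5-fold lower both times, as were 3.81%. Neither reached 2-fold in either pair. No member reached 2-fold both times, where 165 of all these genes rose and 24 fell. When arrays were scaled to the spike-in controls the values were 0.99 and 0.96 for FAS. For FADD they were then -0.40 and -0.34, with the same signs but under 1.5-fold. With arrays centred on their medians FAS had 0.49 and 0.55, both under 1.5-fold, and FADD -0.91 and -0.75. After quantile normalization FAS had 0.49, under 1.5-fold, and 0.59, and FADD -0.72 and -0.67. No other FAS probe set passed 1.5-fold both times as deposited: 215719_x_at had 0.66 and 0.52, and 216252_x_at 0.45 and 0.40. By their brightest probe sets as deposited, TNFRSF10A had -0.32 and -1.10, TNFRSF1A 0.08 and -0.62, and TNFRSF10D -0.17 and 0.43. TNFRSF10B had -0.05 and 0.39, and CASP8 0.01 and -0.27.

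**Figure D3:**
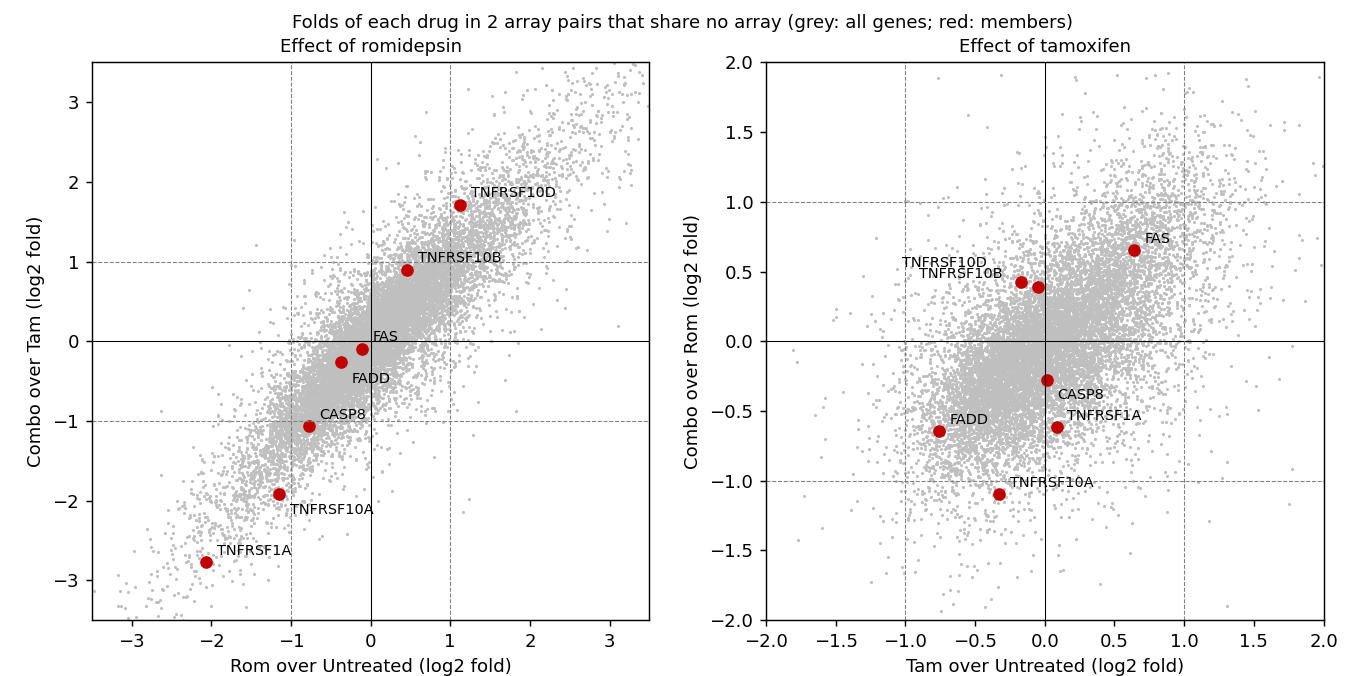
Log2 folds of the members (red) and of all genes inside the axes (grey) for each drug, without the other drug on the x axis and with it on the y axis; the 2 array pairs of a panel share no array. By their brightest probe sets, TNFRSF1A, TNFRSF10A and TNFRSF10D lie past 2-fold (dashed) on both axes for romidepsin. FAS and FADD lie near 0.65 and -0.70 for tamoxifen.

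The second of these values minus the first is, for either drug, the gene's departure from the sum of both drugs' log2 folds. It was -0.77 for TNFRSF10A and -0.70 for TNFRSF1A, below the sum, and 0.60 for TNFRSF10D and 0.44 for TNFRSF10B, above it. CASP8 had -0.29, FADD 0.11 and FAS 0.02. Over 11039 genes above the floor on all 4 arrays the median was -0.04, with 5th and 95th percentiles of -0.78 and 0.59. None of these 7 members departed by 2-fold or more on its brightest probe set. The other probe sets of TNFRSF10A did not share a sign: 241371_at departed by -1.10, past 2-fold, and 1552648_a_at by 0.18. For TNFRSF10B, 210405_x_at had 0.03 and 209294_x_at 0.46, and for CASP8, 207686_s_at had -0.67.

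The other genes of the pathway were taken from 5 lists of 57 genes in all, of which 45 lay above the floor on at least 1 array. In the combination 7 of 45 measured genes rose and 7 fell, with romidepsin 5 rose and 6 fell, and with tamoxifen 1 of 43 rose and 0 fell. Over all measured genes 20.0% rose and 14.3% fell in the combination. With romidepsin 14.5% rose and 9.26% fell, and with tamoxifen 3.71% and 1.08%. The median log2 folds of the listed genes were -0.29, -0.20 and -0.05, each below that of all measured genes given above. Listed genes without a probe set naming them only, such as BIRC3, TRAF2, TNFRSF6B and TNFSF12, are not described.

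Of 6 measured receptors and decoys on the list, 2 rose and 1 fell in the combination and likewise with romidepsin. Over all measured genes 20.0% rose and 14.3% fell in the combination, and 14.5% and 9.26% with romidepsin. NGFR, the low-affinity neurotrophin receptor, which has a death domain, read 1821 in the combination and 2385 with romidepsin, and was under the floor with tamoxifen and in untreated cells, at least 27.4-fold higher in the combination than in untreated cells. TNFRSF1B, the second receptor for tumour necrosis factor, which lacks a death domain, read 141 in the combination, 233 with romidepsin, 73.6 with tamoxifen and 56.3, below the floor, in untreated cells. It was thus at least 2.12-fold and at least 3.51-fold higher in the first and second of these, and moved against TNFRSF1A. With arrays centred on their medians or quantile-normalized its log2 fold in the combination was under 1, at the lowest 0.93. TNFRSF12A, the receptor for TWEAK, read 2872 in the combination, 4731 with romidepsin, 7343 with tamoxifen and 10630 in untreated cells, and fell 3.70-fold in the combination and 2.25-fold with romidepsin.

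Of 21 measured adaptors, ubiquitin enzymes and brakes of the receptor complexes, 3 rose and 3 fell in the combination. Over all measured genes 20.0% rose and 14.3% fell there. CFLAR, the competitor of caspase 8, read 261 in the combination, 384 with romidepsin, 1038 with tamoxifen and 1427 in untreated cells. The fall was 5.47-fold in the combination and 3.71-fold with romidepsin, more than CASP8 showed on the same arrays, and all 10 other measured probe sets of CFLAR had the same sign in both comparisons. The others that fell in the combination, named here after their values were seen, were the apoptosis repressor NOL3 and the death effector domain gene DEDD, with log2 folds of -2.16 and -1.46. The genes that rose, in the combination and with romidepsin, were CYLD, TNFAIP3 and TAB3. CYLD, which removes ubiquitin chains from RIPK1 and related proteins, read 840 in the combination, 649 with romidepsin, 265 with tamoxifen and 174 in untreated cells. TNFAIP3 (A20), an inhibitor of NF-kappaB signalling, read 1055, 1575, 265 and 336 on the same arrays. TAB3, a partner of the kinase TAK1, read 1159, 644, 529 and 243 and was the 1 pathway gene that rose with tamoxifen, 2.18-fold; that call ended under 2 of the 3 other scalings, the log2 fold being 0.97 to 1.48 over the 3.

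Of 12 measured executioners and genes of the mitochondrial branch, 2 rose and 1 fell in the combination, and 1 fell with romidepsin. Over all measured genes 20.0% rose and 14.3% fell in the combination, and 9.26% fell with romidepsin. BID, the substrate that carries the caspase 8 signal to mitochondria, read 341 in the combination, 733 with romidepsin, 1338 with tamoxifen and 2233 in untreated cells. It fell 6.55-fold in the combination and 3.05-fold with romidepsin, and its 2 other measured probe sets had the same sign. CASP9 and APAF1, the caspase and scaffold of the apoptosome, rose 2.06-fold and 2.09-fold in the combination, calls that ended with arrays centred on their medians or quantile-normalized, with log2 folds as low as 0.75 and 0.77.

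**Figure D4:**
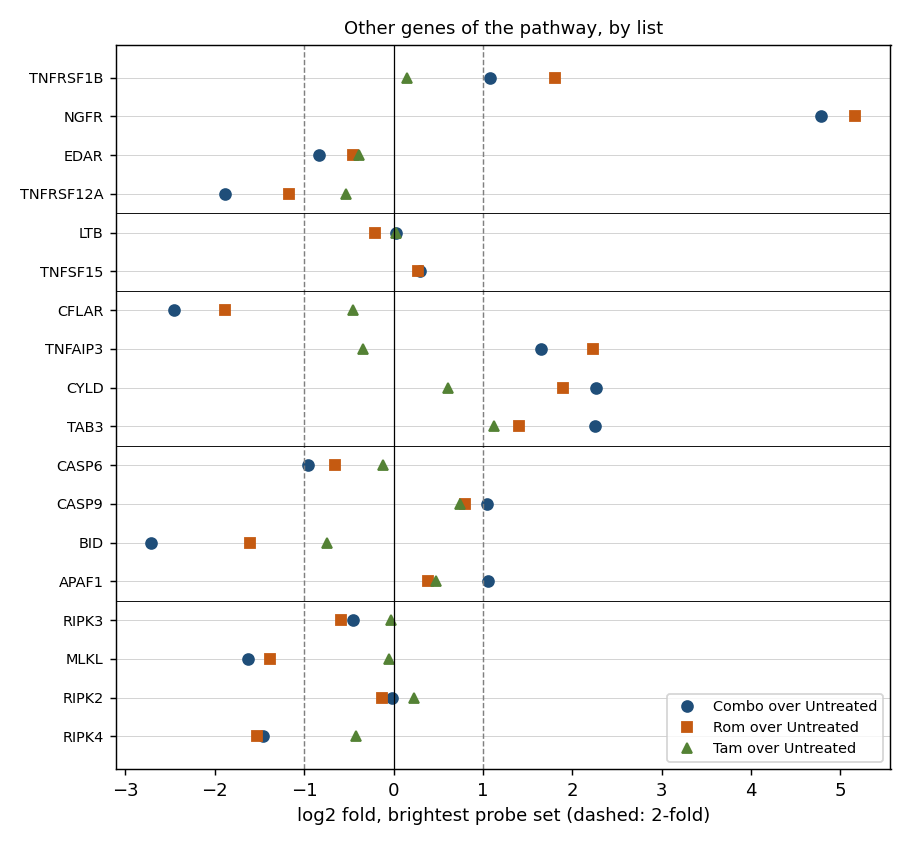
Log2 folds over untreated cells of the named genes of 5 pathway lists, separated by lines, for the combination (circles), romidepsin (squares) and tamoxifen (triangles), with 2-fold dashed; a point is missing where both arrays lay under the floor. CFLAR and BID lie furthest left and NGFR furthest right.

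The genes whose profile over the 4 arrays was most like that of TNFRSF1A, the member with the largest range, were sought among 6315 other genes with a range of at least 2-fold, by the Euclidean distance between mean-centred log2 signals. The nearest was MAP3K20, a stress-activated kinase, at a distance of 0.08, with 845 in the combination, 1283 with romidepsin, 5767 with tamoxifen and 5083 in untreated cells. Next were the neurotensin receptor NTSR1 at 0.11 and the homeobox gene HOXB8 at 0.12. With 4 arrays, such closeness is a description only.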

How the data were processed

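The deposited values are probe-set intensities made by the authors with MAS5, per the submitters' processing notes, which name no version. Each array was scaled on its own: the mean of its signals, with 2% trimmed at each end, was 500.1 on all 4 arrays. Scanner files and detection calls were not used here, so background correction and batches could not be varied, and precision is limited by the number of arrays.

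Genes were taken from the platform annotation (41091 of 54675 probe sets name 1 gene, 1801 several), and symbols were checked by Entrez ID against RefSeq (assembly GCF_000001405.40, GRCh38.p14), which matched 41037 and changed 0. Controls (62 probe sets) were left out of the floor, the median of all other signals. There were 0 columns of other samples. Groups follow the labels, and 5 comparisons were made with no test, as there is 1 array per group. Alternatives (10) changed the floor, the scaling, the probe set of a gene and the fold. The members and lists were chosen with earlier results of these data known. Every member probe set was named. Of each list up to 4 genes with the largest fold over untreated cells were named, plus CFLAR, and the 3 genes nearest in profile to the member with the largest range. The steps were tested on simulated data. Python 3.11.15, numpy 2.4.6, pandas 2.3.3 and matplotlib 3.10.9 were used.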

Additional observations from a re-analysis of the deposited data

How the results depend on the processing

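No paired analysis was possible because, with 1 array per condition, the groups share fewer than 2 replicate numbers; the 2 pairs of arrays per drug are described without a test. Of the counts of members, called or departing from additivity, 5 changed with the fold used: at 1.5-fold there were 2 for tamoxifen over untreated cells (0 at 2-fold) and 4 for the combination over romidepsin (1 at 2-fold), and 3 members departed from additivity (0 at 2-fold). At 3-fold there were 2 for the combination over untreated cells (5 at 2-fold), 1 for romidepsin over untreated cells (3 at 2-fold) and 0 for the combination over romidepsin. The last count was also 0 with the floor at the 75th percentile, with an offset in place of a floor and with scaling to the spike-in controls. With the floor at the 25th percentile TNFSF10 was counted as the 1 member higher with tamoxifen. It then also rose in the combination over untreated cells, where 6 members were called. Taking the median over probe sets gave 3 for the combination over untreated cells. Leaving out _s_at and _x_at probe sets also gave 3 there and 2 for the combination over tamoxifen, since TNFRSF1A and CASP8 then have no measured probe set. The other 47 recomputed counts stayed within 1.5 times, and 0 called folds changed sign. Shares of all genes in single comparisons were taken at 2-fold under the main settings only, and none for departures from additivity. The recomputed counts are therefore not set against all genes. Signals near the floor limit FAS, CASP10, TNFSF10 and 210654_at of TNFRSF10D. They also limit TNFRSF10A in the combination, at 89.9 to 142, and TNFRSF1B, which was below the floor in untreated cells.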

Other observations

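Of 4 measured genes of the necroptosis list, 2 fell in the combination and with romidepsin and 0 rose, where 14.3% of all measured genes fell and 20.0% rose in the combination, and 9.26% fell and 14.5% rose with romidepsin. MLKL, which breaks the cell membrane in this form of death, read 103 in the combination, 123 with romidepsin, 309 with tamoxifen and 320 in untreated cells, 3.10-fold lower in the combination and 2.61-fold lower with romidepsin than in untreated cells. RIPK3, the kinase that phosphorylates MLKL, was close to the floor, at 72.8, 10.4, 97.6 and 99.7 on the same arrays. RIPK4, a kinase of keratinocyte differentiation placed on the list by family, read 1402, 1339, 2900 and 3866, 2.76-fold lower in the combination and 2.89-fold lower with romidepsin. RIPK2, which serves the NOD receptors, read 1009, 934, 1201 and 1022. Of the other ligands on the list, LTB and TNFSF15 alone passed the floor on any array, with at most 78.0 and 81.4, and neither rose or fell.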
